A study of Mus musculus with 6 samples.

Results

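The 55 genes described here encode the proteins that license replication origins, fire them and carry the DNA replication fork: the origin recognition complex, the Mcm helicase and its loaders, the Gins complex, the DNA polymerases, the sliding clamp, the enzymes of nucleotide supply, and the factors that copy chromatin and stabilise the fork. They were chosen by name, with earlier results of these data known. Each was read from the probe set with that single gene symbol, taking the one with the highest mean where there were several, and all 55 of 55 were measured and passed the filter on dim probe sets, among 13632 genes tested. Expression was measured on 6 Affymetrix arrays in mouse embryonic heart cells at E12.5. The mice came from crosses of TNTCre, in which the cardiac troponin T promoter drives Cre recombinase, with a Yap flox strain and the R26 mTmG reporter, and GFP-labelled cardiomyocytes were sorted from individually digested hearts. There were 3 arrays of Yap heterozygous cells (Yap HET) and 3 of Yap knockout cells (Yap KO), called biological replicates in the series. The controls also carry TNTCre and a floxed allele, so no group has full Yap dosage, and the deletion is limited to cells in which TNTCre has acted. Which embryos shared a litter, and whether hearts were pooled for an array, is not given in the labels, so p-values measure the spread between these arrays.

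Before a cell copies its DNA, the origin recognition complex, Cdc6 and Cdt1 load the ring-shaped Mcm helicase onto origins in G1 phase, which is called licensing. In S phase the kinase Cdc7 with its activator Dbf4, helped by Cdc45, Mcm10 and the Gins complex, turns the loaded rings into active helicases, and polymerases alpha, delta and epsilon copy the strands. Many of these genes are transcribed in proliferating cells under the control of E2F factors, and cardiomyocytes of the midgestation heart are still dividing, with Yap known as a driver of their proliferation. Yap1 itself, the floxed gene, read 886, 927 and 871 in Yap HET against 103, 84.7 and 86.6 in Yap KO. Its log2 change was -3.29 ± 0.081. Values per gene are intensities in replicates 1, 2 and 3 of each group, and each log2 change is the Yap KO mean less the Yap HET mean, ± its standard error.

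The labelled cell type was borne out by its markers: all 15 cardiomyocyte markers were measured, with summed intensities from 104761 to 106161 on Yap HET and from 104076 to 106926 on Yap KO arrays. Of these, 1 of 15 rose (Nppa, 0.19 ± 0.049) and 0 fell by limma, with 2 lower at an unadjusted p under 0.05. Over all genes tested 5.16% rose and 4.76% fell by limma, and 14.4% were lower at an unadjusted p under 0.05. Some markers of other cells changed. The 10 mesenchymal and fibroblast markers summed to 11312 to 11654 on Yap HET and 12383 to 14335 on Yap KO arrays, and 4 of 10 rose. These were Pdgfra (0.98 ± 0.097), Tcf21 (0.93 ± 0.17), Pdgfrb (0.73 ± 0.084) and Postn (0.72 ± 0.13), each a larger change in size than that of any of the 55 replication genes. The sum understates them, since it holds Vim, which read 6068 to 6368 on Yap HET and 5979 to 6109 on Yap KO arrays and did not pass the test (-0.040 ± 0.048). The 10 endothelial and endocardial markers summed to 1606 to 1738 and 1863 to 1950.0, with 2 that rose (Kdr, 0.76 ± 0.053, and Nfatc1, 0.31 ± 0.078) and 1 that fell (Npr3, -0.34 ± 0.057) among the 9 that passed the filter. The sums overlapped between the groups for 7 epicardial markers (3249 to 4015 against 2032 to 3299), 5 smooth muscle, 8 erythroid (1389 to 1693 against 1544 to 3876), 9 macrophage and 4 neural markers. Among these 5 lists 1 marker passed the test, the macrophage gene Lyz2, which rose (0.47 ± 0.11). Of the 5 macrophage markers tested, however, 4 had changes below 0 and 1 above, with a median of -0.17. The largest of these in size was that of Cd68, which did not pass (-0.72 ± 0.20, limma adjusted p = 0.063). The erythroid gene Hbb-y had the highest log2 change of all genes tested but did not pass (2.89 ± 1.14, limma adjusted p = 0.15). It read 232, 27.1 and 19.8 in Yap HET against 1295, 450 and 86.3 in Yap KO. All 6 erythroid markers that passed the filter had changes above 0. The 2 that were left out as dim had lower means in Yap KO: Alas2 with 64.4 in Yap HET against 60.9, and Epb42 with 71.8 against 56.2. Hbb-y and Hba-x read below the filter level of 85.7 on Yap HET replicates 2 and 3, so the shared sign depends in part on the filter. Of the 7 epicardial markers 6 had changes below 0 and 1 above, with a median of -0.32. No marker was at 0, and the dimmest was the macrophage marker Adgre1 at 34.9. The part of these cells in the results for the replication genes was not tested, and in sorted bulk RNA a smaller share of cycling cells and less RNA per cell cannot be told apart.

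Of the 55 replication genes, 27 fell in Yap KO cells and 0 rose (limma with Benjamini-Hochberg adjustment over 13632 genes, adjusted p under 0.05). That is 49.1% of the genes, where 4.76% of all genes tested fell and 5.16% rose. With no adjustment, 39 were lower and 0 higher at a limma p under 0.05, where 14.4% of all genes were lower and 13.9% higher. All 3 Yap KO arrays lay below all 3 Yap HET arrays for 41 of the 55, where this held for 17.2% of all genes tested, and above them for 2, where it held for 16.7%. The median log2 change, Yap KO minus Yap HET, was -0.24, and that of all tested genes was -0.017. The changes were small in size, from -0.56 in Cdc6 to 0.13 in Orc5. The count depended on single arrays: leaving out Yap HET replicate 1 gave 8, leaving out Yap KO replicate 2 gave 11 and leaving out Yap KO replicate 3 gave 12, and the other arrays gave between 18 and 23. The share of all tested genes that fell dropped with it, from 4.76% to 1.51%, 1.61% and 2.24% without these 3 arrays, and to between 2.74% and 4.38% without the others. The 8 genes that fell without Yap HET replicate 1 also fell without each of the other arrays and under every other alternative tried: Cdc6, Cdt1, Mcm2, Mcm5, Mcm7, Mcm10, Pold2 and Pole2. The other 19 calls were each lost in at least 1 alternative.

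**Figure D1:**
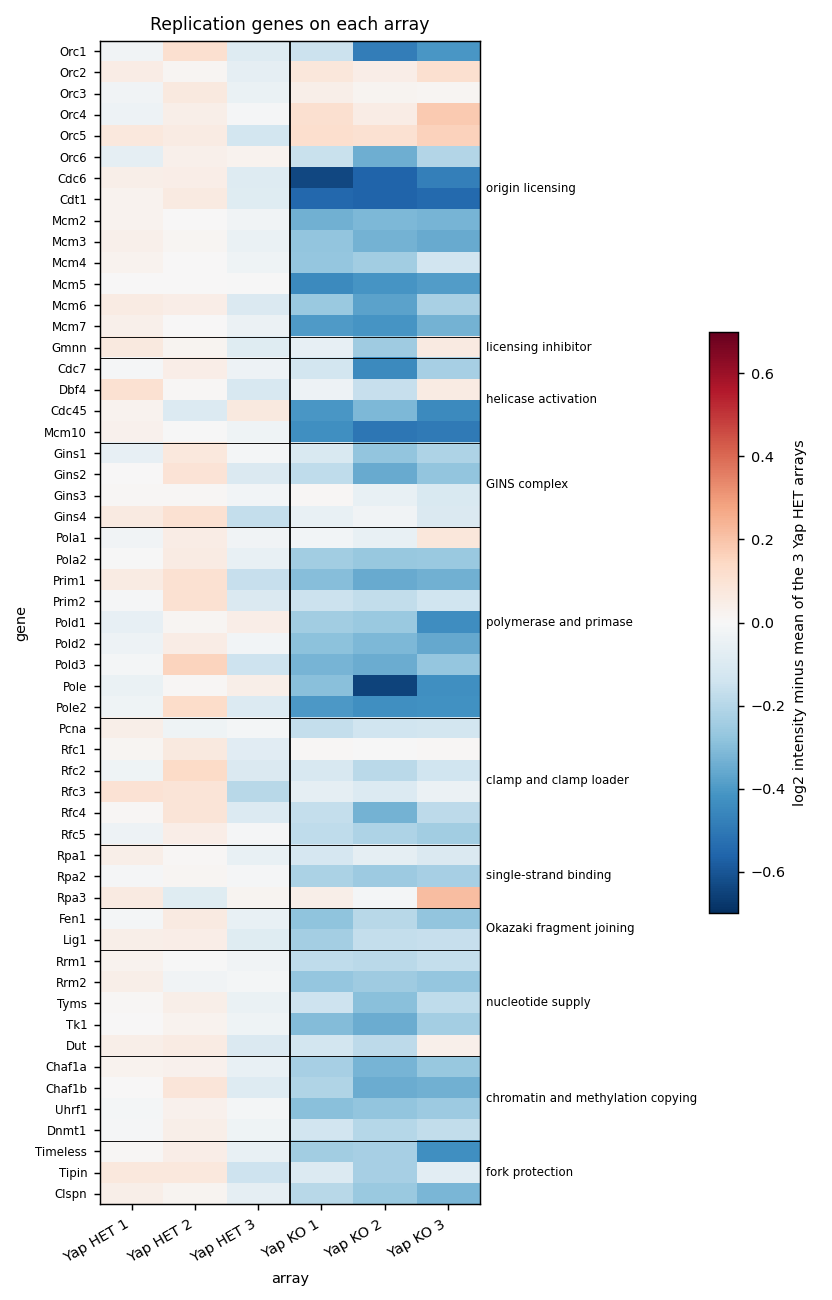
Each row is 1 of the 55 replication genes, ordered by role, and each column 1 array; the colour gives the log2 intensity minus the mean of the gene's 3 Yap HET arrays. The 3 Yap KO columns are blue in most rows, and the rows of Orc2, Orc3, Orc4 and Orc5 are pale or red there.

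Among the licensing genes the loaders of the helicase had the largest changes. Cdc6, the ATPase that closes the loading complex around DNA, read 453, 455 and 414 in Yap HET against 283, 298 and 316 in Yap KO. Its groups did not overlap, and it fell, with a log2 change of -0.56 ± 0.064 (limma adjusted p = 0.0034). Cdt1, which brings the helicase to the origin and is destroyed once S phase starts, read 1101, 1131 and 1021 in Yap HET against 741, 734 and 744 in Yap KO. The 3 Yap KO values of Cdt1 were close together and all below the Yap HET values, with a log2 change of -0.55 ± 0.055 (limma adjusted p = 0.0024). Gmnn, whose product geminin binds and inhibits Cdt1, read 326, 315 and 293 in Yap HET against 299, 262 and 325 in Yap KO. The groups of Gmnn overlapped, its log2 change was -0.081 ± 0.085 (limma adjusted p = 0.57), and without Yap KO replicate 2 its value was 0.0018.

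All 6 subunits of the Mcm helicase fell, with a median log2 change of -0.32. Mcm5 had the largest change of the ring, with 1462, 1463 and 1456 in Yap HET against 1073, 1097 and 1115 in Yap KO and a change of -0.42 ± 0.046 (limma adjusted p = 0.0032). Its 3 Yap HET values were nearly equal, and its Yap KO values were all lower. Mcm7 read 2000.5, 1954 and 1896 in Yap HET against 1479, 1462 and 1553 in Yap KO (-0.38 ± 0.051, limma adjusted p = 0.0058). Mcm2 read 1909, 1882 and 1847 in Yap HET against 1486, 1509 and 1498 in Yap KO (-0.33 ± 0.046, limma adjusted p = 0.0068). Both had groups that lay well apart. Mcm3 (-0.32 ± 0.051), Mcm6 (-0.29 ± 0.066) and Mcm4 (-0.22 ± 0.055) also fell, and Mcm4 was the subunit nearest the threshold (limma adjusted p = 0.047), with 1474, 1449.6 and 1419 in Yap HET against 1199, 1224 and 1317 in Yap KO. The call of Mcm4 was lost in 3 of the 10 alternatives with all 6 arrays (among them median centring, limma adjusted p = 0.056) and whenever an array was left out, and that of Mcm6 in 2 and in 5 of 6. The mean of the 6 subunits stood -0.33, -0.35 and -0.29 from the Yap HET mean (log2 units) on Yap KO replicates 1, 2 and 3, so every Yap KO array was lower by a similar amount.

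The origin recognition complex, the platform that marks origins and on which the helicase is loaded, had no gene past the test on the values as deposited, but Orc6 passed in 7 of the 10 alternatives that kept all 6 arrays and Orc1 in 3 of the 9 that tested it. Of its 6 subunit genes 0 passed the limma test in either direction at the settings used throughout. With no adjustment 2 were lower and 0 higher, where 14.4% of all genes were lower and 13.9% higher. The median log2 change of the 6 was 0.052. Orc1, the subunit that is degraded and made again in each cycle in mammalian cells, read 128, 141 and 123 in Yap HET against 118, 93.5 and 98.7 in Yap KO. Its Yap KO values were near the filter level of 85.7, its groups did not overlap, and its change was -0.35 ± 0.094 (limma adjusted p = 0.058; 0.023 without Yap KO replicate 1). Orc6 read 920.2, 985 and 974 in Yap HET against 860.0, 756 and 834 in Yap KO, also without overlap (-0.23 ± 0.064, limma adjusted p = 0.058). Its limma adjusted p was 0.039 after quantile normalization, 0.049 after median centring, 0.042 after cyclic loess and 0.010 with a trended and robust prior, and between 0.060 and 0.18 when an array was left out. The other 4 subunits had values above 0 that did not pass. Orc4 read 666, 703 and 678 in Yap HET against 736, 706 and 776 in Yap KO (0.11 ± 0.056, limma adjusted p = 0.22) and Orc5 666, 657 and 577 in Yap HET against 685, 681 and 706 in Yap KO (0.13 ± 0.066, limma adjusted p = 0.25), with all Yap KO arrays above all Yap HET arrays in both. Orc2 (0.079 ± 0.053) and Orc3 (0.024 ± 0.051) had overlapping groups. The signs of Orc2, Orc3, Orc4 and Orc5 stayed positive under each scaling tried.

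Promoters are shown for 6 of these genes to set the letters upstream of the start beside the changes: 4 that fell, 2 of them with and 2 without an E2F-type match, and 2 with an E2F-type match that did not pass the test. Each is the 250 bases before the annotated start from RefSeq (GRCm38.p6), 5′ to 3′ on the gene's strand. Capitals mark matches on either strand to TTTNNCGC with each N a C or G (an E2F-type motif, 8 letters) and to CCAAT (5 letters, the box bound by NF-Y), and neighbouring capitals can be overlapping matches.
Cdc6 (chr11:98907901-98908150, plus strand): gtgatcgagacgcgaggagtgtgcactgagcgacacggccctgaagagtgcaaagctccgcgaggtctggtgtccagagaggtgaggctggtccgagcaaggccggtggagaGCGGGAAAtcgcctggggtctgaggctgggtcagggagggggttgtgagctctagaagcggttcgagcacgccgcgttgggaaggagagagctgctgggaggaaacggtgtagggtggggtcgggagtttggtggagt
Mcm5 (chr8:75109259-75109508, plus strand): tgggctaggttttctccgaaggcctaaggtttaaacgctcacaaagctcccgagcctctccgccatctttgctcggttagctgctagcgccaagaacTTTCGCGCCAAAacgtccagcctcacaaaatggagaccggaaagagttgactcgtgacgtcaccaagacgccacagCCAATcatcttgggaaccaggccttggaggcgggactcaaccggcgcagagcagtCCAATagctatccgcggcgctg
Cdt1 (chr8:122567765-122568014, plus strand): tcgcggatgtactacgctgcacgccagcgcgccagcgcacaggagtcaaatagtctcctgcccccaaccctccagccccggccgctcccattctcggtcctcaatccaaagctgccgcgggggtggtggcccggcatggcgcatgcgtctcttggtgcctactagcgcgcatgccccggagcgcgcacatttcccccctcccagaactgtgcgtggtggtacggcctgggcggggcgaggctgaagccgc
Mcm10 (chr2:5012792-5013041, minus strand): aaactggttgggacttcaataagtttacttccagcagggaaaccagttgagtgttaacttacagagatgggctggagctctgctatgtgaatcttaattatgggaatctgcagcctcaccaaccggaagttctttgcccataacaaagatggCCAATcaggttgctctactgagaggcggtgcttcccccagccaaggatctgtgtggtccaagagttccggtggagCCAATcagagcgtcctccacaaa
Orc3 (chr4:34614943-34615192, minus strand): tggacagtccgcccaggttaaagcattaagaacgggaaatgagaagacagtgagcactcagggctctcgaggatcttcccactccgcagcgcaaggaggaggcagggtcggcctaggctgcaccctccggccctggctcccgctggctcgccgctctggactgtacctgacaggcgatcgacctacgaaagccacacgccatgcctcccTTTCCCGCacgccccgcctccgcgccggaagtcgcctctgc
Pola1 (chrX:93632156-93632405, minus strand): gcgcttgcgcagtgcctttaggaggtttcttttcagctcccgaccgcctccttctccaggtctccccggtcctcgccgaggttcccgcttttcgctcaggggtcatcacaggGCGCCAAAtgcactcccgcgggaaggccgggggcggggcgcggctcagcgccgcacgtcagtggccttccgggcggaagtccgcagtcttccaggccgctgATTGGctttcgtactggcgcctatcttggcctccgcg

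In these windows Mcm5 held 2 overlapping E2F-type matches and 2 CCAAT boxes, Cdc6 held 1 E2F-type match, Mcm10 held 2 CCAAT boxes, and Cdt1 held none of these letters. Orc3 and Pola1 each held 1 E2F-type match. The promoter table had 46 of the 55 genes, and Gins1, Gins2, Gins4, Gmnn, Mcm4, Pole, Prim2, Rfc2 and Tipin had no entry. An E2F-type match stood in 11 of their 58 promoters (19.0%) and in 1.86% of all 32851 promoters. CCAAT stood in 51.7% against 33.9%, and CATTCC, a motif of the TEAD factors through which Yap acts, in 10.3% against 12.6%, both strands counted. Within the set, 5 of 25 genes that fell and 6 of 21 that did not pass held an E2F-type match. A match is a description of letters and not of a bound site.

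The genes that turn the loaded ring into a moving helicase were lower in part. Mcm10, which is needed to activate the helicase and despite its name is no subunit of the ring, read 538, 526 and 516 in Yap HET against 391, 371 and 374 in Yap KO. Its groups lay far apart and it fell, with a log2 change of -0.48 ± 0.050 (limma adjusted p = 0.0027). Cdc45, the helicase cofactor, read 679.9, 628 and 703 in Yap HET against 504, 539 and 492 in Yap KO and fell, with a log2 change of -0.39 ± 0.063 (limma adjusted p = 0.011), without overlap. The kinase gene Cdc7 read 299, 309.6 and 293 in Yap HET against 275, 220.0 and 255 in Yap KO. All its Yap KO values were lower but spread widely, and its change of -0.27 ± 0.082 did not pass (limma adjusted p = 0.079). Dbf4, the activating subunit of that kinase, had 794, 742 and 683 in Yap HET against 719, 659.7 and 768 in Yap KO. The groups of Dbf4 overlapped (-0.047 ± 0.078, limma adjusted p = 0.73), and its value was 0.0053 when Yap HET replicate 1 was left out and 0.010 when Yap KO replicate 2 was.

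Of the 4 subunit genes of the Gins complex, which joins the helicase to the polymerases, 0 passed the limma test, and the median was -0.13. With no adjustment 2 were lower and 0 higher, where 14.4% of all genes were lower and 13.9% higher. Gins2 read 604, 643 and 562 in Yap HET against 532, 471 and 497 in Yap KO, without overlap and just outside the threshold (-0.27 ± 0.070, limma adjusted p = 0.0511). Gins2 passed in 7 of the 10 alternatives with all 6 arrays (limma adjusted p = 0.020 after quantile normalization, 0.023 after median centring and 0.019 after cyclic loess) and in none of the 6 with an array left out. Gins1 read 391, 429 and 403 in Yap HET against 379, 337 and 351 in Yap KO, also without overlap (-0.20 ± 0.064, limma adjusted p = 0.089), and passed in 3 of those 10. Gins3 had 349, 349 and 342 in Yap HET against 349, 334 and 321 in Yap KO, and Gins4 had 1102, 1139 and 941 in Yap HET against 1021, 1039 and 986 in Yap KO. Both overlapped between the groups, with a change of -0.050 ± 0.052 (limma adjusted p = 0.57) for Gins3, and of -0.058 ± 0.077 (limma adjusted p = 0.67) for Gins4.

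The polymerase and primase genes fell in 7 of 9 cases and rose in 0, with a median of -0.31. Pole, the catalytic subunit of the leading-strand polymerase epsilon, read 581, 603 and 616 in Yap HET against 489.5, 382 and 446 in Yap KO and fell, with a log2 change of -0.46 ± 0.088 (limma adjusted p = 0.020), with Yap KO replicate 2 the lowest. Its partner Pole2 read 560.2, 626 and 535 in Yap HET against 434, 425 and 426 in Yap KO and fell, with a log2 change of -0.42 ± 0.066 (limma adjusted p = 0.010). Neither overlapped. Of polymerase delta, which copies the lagging strand, Pold1, Pold2 and Pold3 fell. The gene of its small subunit, Pold4, which is not among the 55, read 246, 291 and 226 in Yap HET against 284, 291 and 307 in Yap KO, with overlap, and did not pass (0.22 ± 0.092, limma adjusted p = 0.17). Pold2, its accessory subunit, read 2123, 2256 and 2149 in Yap HET against 1782, 1750.1 and 1699.9 in Yap KO (-0.32 ± 0.051, limma adjusted p = 0.010), Pold1, the catalytic subunit, changed by -0.31 ± 0.066 and Pold3 by -0.31 ± 0.078. The primer-making polymerase alpha was divided. Its accessory gene Pola2 fell (-0.26 ± 0.050, limma adjusted p = 0.021) with 967, 1008 and 936 in Yap HET against 819, 806 and 809 in Yap KO, and the primase gene Prim1 fell (-0.33 ± 0.074, limma adjusted p = 0.034) with 621, 643 and 534 in Yap HET against 486, 469 and 474 in Yap KO. The large primase subunit gene Prim2 had -0.15 ± 0.063 without overlap and did not pass (limma adjusted p = 0.16). Pola1, the catalytic subunit, read 364, 384 and 364 in Yap HET against 366, 358 and 391 in Yap KO. Its groups overlapped, and its change of 0.0031 ± 0.055 (limma adjusted p = 0.98), was close to 0 and turned sign under median centring.

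**Figure D2:**
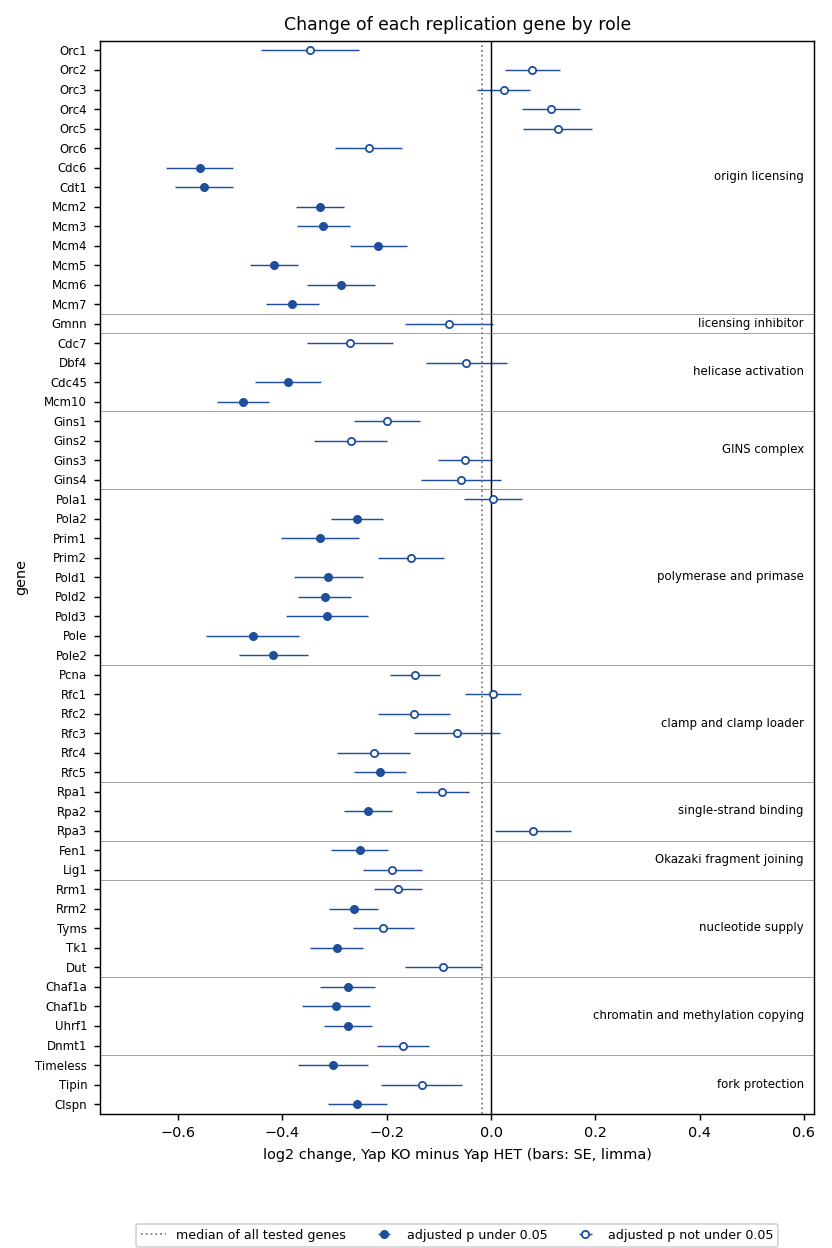
Points give the log2 change, Yap KO minus Yap HET, of each of the 55 genes with its standard error from limma (3 arrays against 3), ordered by role; filled points passed an adjusted p of 0.05. The 6 Mcm helicase subunits and 7 of 9 polymerase and primase genes are filled on the left, and the Gins and origin recognition complex genes are open.

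Of the clamp and its loader, 1 of 6 genes fell and 0 rose, where 4.76% of all genes tested fell. Pcna, the sliding clamp, read 4074, 3878 and 3926 in Yap HET against 3521, 3599.6 and 3618 in Yap KO. The groups of Pcna did not overlap, with Yap KO below, as held for 17.2% of all genes tested. Its change was -0.15 ± 0.048 and did not pass (limma adjusted p = 0.098). A further Pcna probe set gave nearly the same value on every array (4055, 3854 and 3897 against 3509, 3568 and 3588), and what sets them apart was not tested. Of the 5 clamp loader genes, Rfc5 fell (-0.21 ± 0.050, limma adjusted p = 0.038), with 1533, 1623 and 1559.8 in Yap HET against 1389, 1354 and 1325 in Yap KO. Rfc4 read 1455, 1538 and 1354 in Yap HET against 1290.5, 1151 and 1277 in Yap KO, without overlap (-0.23 ± 0.070, limma adjusted p = 0.082), and Rfc2 had -0.15 ± 0.068. Rfc3 overlapped between the groups (-0.066 ± 0.083), as did the large subunit gene Rfc1, with 762, 791 and 715 in Yap HET against 759, 753 and 761 in Yap KO, whose change of 0.0036 ± 0.054 turned sign under median centring, cyclic loess and array weights. The median of the clamp and loader genes was -0.15.

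Of the 3 subunit genes of replication protein A, which coats single-stranded DNA, 1 fell and 0 rose, where 4.76% of all genes tested fell. Rpa2 read 753, 764 and 751 in Yap HET against 649, 633 and 643 in Yap KO and fell, with tight groups (-0.24 ± 0.046, limma adjusted p = 0.020). Rpa1, the large subunit, had -0.093 ± 0.050 (limma adjusted p = 0.27). Rpa3, the small subunit, read 1234, 1114 and 1194 in Yap HET against 1214, 1168 and 1368 in Yap KO, with overlap (0.080 ± 0.073, limma adjusted p = 0.51). A further probe set of the gene read 885, 860 and 796 in Yap HET against 1023, 890 and 1032 in Yap KO, with all Yap KO arrays above. Its change was 0.21 ± 0.074 (limma adjusted p = 0.12 over all named probe sets), so the overlap of Rpa3 depended on the probe set. For the joining of lagging-strand fragments, the flap nuclease gene Fen1 fell, with 317, 334 and 308 in Yap HET against 263, 279 and 263 in Yap KO (-0.25 ± 0.054, limma adjusted p = 0.029). The ligase gene Lig1 read 809, 814 and 743 in Yap HET against 668, 701 and 704 in Yap KO, without overlap but not past the test (-0.19 ± 0.057, limma adjusted p = 0.076).

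In nucleotide supply 2 of 5 genes fell and 0 rose, with a median of -0.21. Rrm2, the cell-cycle regulated subunit of ribonucleotide reductase, read 2391, 2293 and 2302 in Yap HET against 1931, 1961 and 1927 in Yap KO and fell (-0.26 ± 0.047, limma adjusted p = 0.016). Rrm1, the large subunit, read 2682, 2629.9 and 2590.0 in Yap HET against 2329.8, 2308 and 2345 in Yap KO. Its groups lay apart too, and it missed the threshold narrowly (-0.18 ± 0.046, limma adjusted p = 0.0504). Tk1, the thymidine kinase of S phase, fell (-0.30 ± 0.051, limma adjusted p = 0.014), with 565, 575 and 553 in Yap HET against 457, 444 and 478 in Yap KO, and a further probe set of the gene had -0.40 ± 0.079 (limma adjusted p = 0.023). Tyms, the thymidylate synthase gene, read 680.0, 697 and 655 in Yap HET against 612, 552 and 598 in Yap KO, without overlap (-0.21 ± 0.058, limma adjusted p = 0.063). Dut, whose product keeps uracil out of DNA, overlapped between the groups (-0.091 ± 0.074, limma adjusted p = 0.46).

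Genes that copy chromatin behind the fork fell in 3 of 4 cases and rose in 0, with a median of -0.27. Uhrf1, which recognises half-methylated DNA and recruits the maintenance methyltransferase, read 926, 954 and 926 in Yap HET against 764, 773 and 783 in Yap KO (-0.27 ± 0.047, limma adjusted p = 0.013). The histone chaperone genes Chaf1a (-0.27 ± 0.053) and Chaf1b (-0.30 ± 0.065) also fell. Dnmt1, the methyltransferase itself, read 1548, 1597 and 1520.2 in Yap HET against 1419, 1352 and 1380.2 in Yap KO, without overlap but not past the test (-0.17 ± 0.049, limma adjusted p = 0.071). Of the fork protection genes, Timeless fell, with 238, 245 and 229 in Yap HET against 200.3, 202 and 176 in Yap KO (-0.30 ± 0.067, limma adjusted p = 0.031), as did the checkpoint adaptor gene Clspn (-0.26 ± 0.057, limma adjusted p = 0.031), with 381, 375 and 355 in Yap HET against 324, 309 and 296 in Yap KO. Tipin, the partner of Timeless, had overlapping groups (-0.13 ± 0.077, limma adjusted p = 0.30).

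Set side by side by role, the median log2 change was -0.30 for the 14 licensing genes, -0.31 for the 9 polymerase and primase genes, -0.21 for the 5 nucleotide supply genes and -0.13 for the 4 Gins genes. These medians are a description, since the genes were chosen with results of these arrays known. Within licensing, Cdc6, Cdt1 and the 6 helicase subunits made up the 8 falls at these settings. This division was not kept in every alternative, since Orc6 passed in 7 of 10 and Orc1 in 3 of 9, and Mcm4 was lost in 3. The mean of the Gins genes stood -0.080, -0.18 and -0.18 from its Yap HET mean on Yap KO replicates 1, 2 and 3, that of the polymerase and primase genes -0.25, -0.32 and -0.29, that of nucleotide supply -0.21, -0.25 and -0.16 and that of the origin recognition complex 0.0055, -0.10 and -0.022. On Yap HET replicate 3 the Gins mean was -0.076, near Yap KO replicate 1, whereas the polymerase means of the groups lay far apart. Over all 55 genes, Yap HET replicate 2 was the highest control, with 49 genes above their Yap HET mean, and Yap HET replicate 3 the lowest, with 5. Leaving out single arrays moved the medians between -0.34 and -0.26 for licensing, -0.33 and -0.28 for polymerases, -0.24 and -0.17 for nucleotide supply, and -0.17 and -0.10 for Gins.

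**Figure D3:**
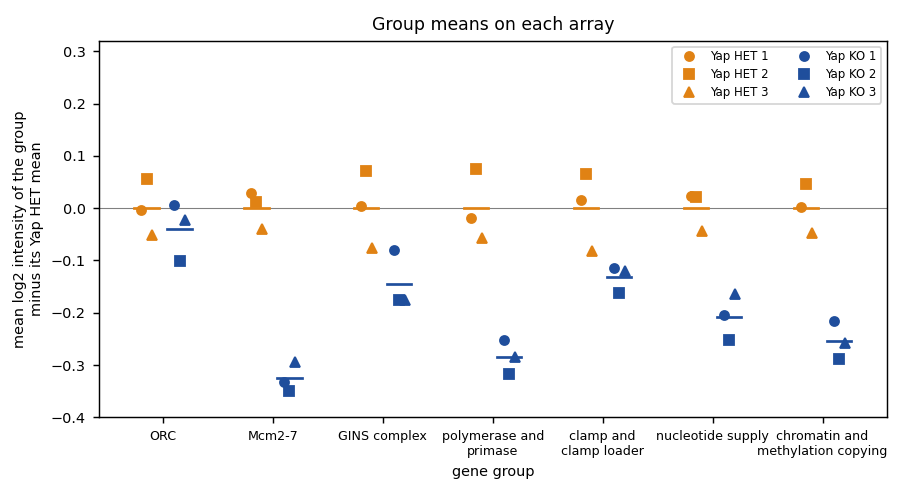
Each point is the mean log2 intensity of a gene group on 1 array, minus the mean over the 3 Yap HET arrays; orange marks Yap HET, blue Yap KO, the shape the replicate number and the bar the group mean. The Mcm helicase and polymerase means of all Yap KO arrays lie well below the controls, and those of the origin recognition complex overlap with them.

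Genes of the same processes outside the 55 were examined in 6 lists. Among 32 other replication factors, 8 fell and 0 rose, where 4.76% of all genes tested fell, with a median of -0.14. They included Dtl, the adaptor of the ligase that destroys Cdt1 in S phase (-0.48 ± 0.066), the nuclease genes Dna2 (-0.45 ± 0.053) and Exo1 (-0.37 ± 0.049), and Rnaseh2a (-0.32 ± 0.051). Of 15 further genes of nucleotide metabolism 8 fell and 0 rose, with a median of -0.19, among them Ctps, the CTP synthase gene (-0.37 ± 0.060), the uracil glycosylase gene Ung (-0.33 ± 0.056) and Shmt1 (-0.29 ± 0.052) of one-carbon metabolism. Of 12 S-phase checkpoint genes 3 fell and 0 rose, with Tonsl (-0.57 ± 0.079), the kinase gene Chek1 (-0.40 ± 0.047) and the clamp gene Rad9a (-0.30 ± 0.065). Of 11 further chromatin assembly genes 2 fell, the histone chaperone gene Asf1b (-0.31 ± 0.048) and Hells (-0.21 ± 0.055), and 0 rose.

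Of 26 regulators of the entry into S phase tested, 8 fell and 2 rose, where 4.76% of all genes tested fell and 5.16% rose, with a median of -0.13. The share that rose was near that of all genes. Mycn (-0.48 ± 0.058, limma adjusted p = 0.0039), a driver of growth in the embryonic myocardium, and E2f7 (-0.46 ± 0.067), an E2F repressor, fell, as did the G1 kinase gene Cdk6 (-0.42 ± 0.078) and the activators E2f1 (-0.32 ± 0.062) and E2f2 (-0.32 ± 0.065). E2f3, also an activator, did not pass (-0.12 ± 0.058, limma adjusted p = 0.21). Myc (0.30 ± 0.049, limma adjusted p = 0.011) rose, as did the retinoblastoma gene Rb1 (0.22 ± 0.050). Of 34 mitosis and cytokinesis genes 3 fell, Ect2 (-0.28 ± 0.057), Aurkb (-0.22 ± 0.048) and Plk1 (-0.22 ± 0.057), and 0 rose, with a median of -0.12. The share that fell was 8.82%, beside 4.76% of all genes, and between 0 and 1 fell when an array was left out. With no adjustment 11 were lower and 0 higher, where 14.4% of all genes were lower and 13.9% higher. Over the 129 genes of the 6 lists, 32 fell and 2 rose. Leaving out Yap HET replicate 1, 2 or 3 in turn gave 11, 19 and 16 falls, and leaving out Yap KO replicate 1, 2 or 3 gave 21, 9 and 13. There were 3 rises when Yap HET replicate 2 was left out and 1 when any of the others was.

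**Figure D4:**
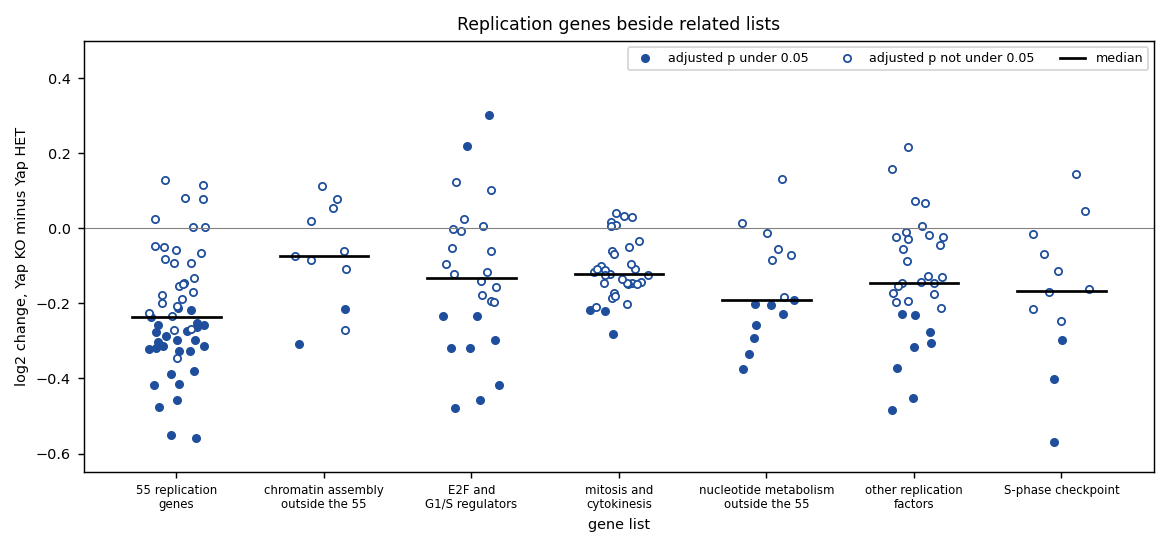
Each point is the log2 change of 1 gene, Yap KO minus Yap HET, in the 55 replication genes and in 6 related lists; filled points passed an adjusted limma p of 0.05 and the bar is the median. The median of the 55 is -0.24, and 2 genes of the E2F and G1/S list, Myc and Rb1, are the filled points above 0.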

How the data were processed

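Per the labels' protocols, 0.1 µg of column-purified RNA from the sorted cells was turned into biotinylated cRNA. The authors deposited a linear intensity for each probe set, from 2.0e-05 to 15701. RMA is named in the submitters' processing notes, and its usual output is log2. How the linear scale arose is not stated. Of 35556 probe sets 21789 had 1 gene symbol, 1621 several and 12146 none, from the platform annotation, and 21698 of the 21789 were matched to RefSeq symbols through Entrez identifiers. Where several probe sets named 1 of the 19938 genes, the brightest by mean log2 intensity stood for it. Genes below an intensity of 85.7, the 40th percentile, were left out. Array medians were 135.9, 132.0 and 139.6 on Yap HET replicates 1, 2 and 3, and 132.8, 129.5 and 128.1 on those of Yap KO. The number of arrays limits the precision. Differences were fitted on log2 intensity with limma 3.58.1 (lmFit, eBayes; R 4.3.3), the 2 groups as sole term, and Benjamini-Hochberg adjustment over 13632 genes. The fit was tested on simulated data with 50 genes each changed by 0.25, 0.5, 1 and 2 among 13632, and called 6.0%, 76.0%, 100% and 100% of these, while 16 of its 157 calls were false. Most changes of 0.25 were thus missed in the simulation. It held 200 changed genes, whereas 649 genes fell and 704 rose in the data, so these shares need not hold there. Among the replication genes, some with changes near 0.25 passed, such as Fen1, and some did not, such as Gins2. Adjusted p-values are from limma throughout.

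The text names all 55 genes, Yap1, and in each related or marker list up to 4 genes with the smallest p. E2f1, E2f2, E2f3, Rb1, Pold4, Vim, Adgre1, Alas2 and Epb42 lie outside this rule and were picked with their values in view. The genes and lists were chosen with earlier results of these data known, so no list has a test of its own. Alternatives were other filters, scalings, priors, weights, an added offset of 32, averaged probe sets, the replicate number as a block, and each array left out.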

Additional observations from a re-analysis of the deposited data

How the results depend on the processing

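The count of 27 replication genes that fell became 12 without a filter on dim probe sets, 12 with the replicate number as a block and 41 with array weights, where 1 rose, Orc4. The share of all tested genes that fell moved with it, from 4.76% to 1.19%, 2.22% and 18.9%. It lay between 28 and 37 under the other alternatives that kept all 6 arrays and between 8 and 23 when an array was left out, where 1.51% to 4.38% of all tested genes fell, and 0 rose in these. Same-numbered arrays of the groups deviated together with correlations of -0.08, -0.17 and 0.12 over all genes, and 1 of 6 arrays correlated best with their own number, so the numbers were not taken as pairs. The 32 falls in the related lists became 12 without a filter, 14 with the replicate block and 70 with array weights, and between 9 and 21 when an array was left out. The 2 rises there became 1 without a filter, 1 with the block, 4 with a trended and robust prior and 5 with array weights, and between 1 and 3 when an array was left out. The median of the 55 genes stayed between -0.27 and -0.21 in each alternative. The licensing median was -0.35 with array weights, -0.32 with Mcm10 added, and between -0.34 and -0.26 when an array was left out. Genes near 0 changed sign without a call. Pola1 was -0.0016 under median centring and between -0.034 and 0.030 when an array was left out. Rfc1 was -0.0011 under median centring, -0.0015 under cyclic loess and -0.0086 with array weights, and between -0.036 and 0.037 when an array was left out. Gmnn ranged from -0.15 to 0.0018 and Dbf4 from -0.10 to 0.010 when an array was left out. The cause of these shifts was not tested. Without detection calls, a value near the filter level, such as that of Orc1, cannot be told from background.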
